A study of Caenorhabditis elegans with 8 samples.

Results

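The UDP-glucuronosyltransferase (ugt) family of Caenorhabditis elegans was followed through the series as every gene whose symbol begins with ugt- in the authors' poly(A) table. This gave 65 genes of 44968 rows, and all 65 were found by their sequence names in the rRNA-depleted table of 25640 genes. The animals were young adults from synchronized liquid culture, either wild type (N2 on the empty RNAi vector L4440, as the poly(A) headers name it) or RNAi against CstF50, whose worm gene is cpf-1. The CstF50 protein belongs to the cleavage stimulation factor, a complex that helps to form mRNA 3′ ends. RNA was either poly(A)-selected or depleted of rRNA, which gave 4 groups with 2 libraries in each and 8 in all, and no label says whether those libraries came from separate cultures, so p-values measure a spread that may be technical.

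UDP-glucuronosyltransferases sit in the membrane of the endoplasmic reticulum and move a sugar from a UDP-sugar onto small lipophilic molecules, which makes drugs, plant and bacterial toxins and some hormones more soluble and easier to export. In nematodes the sugar is known to be mostly glucose. The reaction often follows oxidation by cytochrome P450 enzymes and precedes export by ABC transporters, and in worms the intestine is a main site of this detoxification. The family is large, many of its genes lie side by side, and for most single members the substrate is not known.

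The poly(A) values are 1 FPKM (fragments per kilobase of transcript, scaled to the mapped fragments of the library) per group, so no spread between libraries can be shown for them, and the standard error given for a log2 fold change is the one implied by the authors' p-value. The rRNA-depleted values are mean normalized counts of a condition A and a condition B, and the headers do not say which of these is wild type, so every difference there is given as B against A. Whole counts per library were recovered from these means for all 65 members. The libraries of a condition carry no replicate number, and the one with the larger size factor is called the first. The recovered counts of all genes summed to between 2852379 and 35793329 per library, without the most abundant genes, with the first and second library of A at size factors of 0.739 and 0.249 and those of B at 3.63 and 1.54. The authors' deposited table gives cpf-1 itself 50.5 FPKM in the wild-type group and 67.8 FPKM in the group labelled CstF50 RNAi (q-value 0.613). The listed value of the targeted gene was thus not lower there. The normalized counts of cpf-1 were 1695 for A and 8662 for B in the rRNA-depleted libraries (adjusted p-value 0.00296). Which reads make up these values is not known, and the extent of the knockdown was not tested.

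In poly(A) RNA the most abundant ugt genes of wild-type worms, ugt-12 and ugt-22, were lower in CstF50 RNAi, and ugt-58 was higher. Relative to the median tested gene, itself lower in RNAi, ugt-58 still passed and the other two did not. In rRNA-depleted RNA the same ugt-12 and ugt-22 were lower in condition B together with ugt-46, while ugt-26, ugt-25, ugt-29, ugt-31, ugt-41 and ugt-47 were higher. Most members did not pass the test in either kind of RNA. The shares called were close to those of all genes in poly(A) RNA and somewhat above them in rRNA-depleted RNA.

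The first question was which ugt transcripts differ in poly(A) RNA when CstF50 is targeted. The gene ugt-12 (T19H12.9, chromosome V from 4887159 to 4889602, ce10) stood at 72.0 FPKM in wild-type worms and 14.1 FPKM after RNAi in the authors' deposited table. The RNAi level was 5.13-fold lower, which on the log2 scale is -2.36 (implied SE 0.52, q-value 0.000539). It stood first of the 65 members by mean FPKM.

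The gene ugt-22 (C08F11.8, in a locus shared with another row, chromosome IV from 13639242 to 13644377) is known in C. elegans for altering the effect of the anthelmintic albendazole. The authors' deposited table lists it at 51.4 FPKM for wild type against 11.7 FPKM after RNAi, which on the log2 scale is -2.14 (implied SE 0.51, q-value 0.00148). Both genes thus ended in RNAi at a level that ugt-62 and ugt-44, whose values hardly differed between groups, exceeded. In the other direction, ugt-58 (F35H8.6, chromosome II from 9584319 to 9586726) went from 2.61 FPKM in wild type up to 12.6 FPKM, 4.82-fold higher or 2.27 on the log2 scale (implied SE 0.58), and its q-value there was 0.00347.

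**Figure D1:**
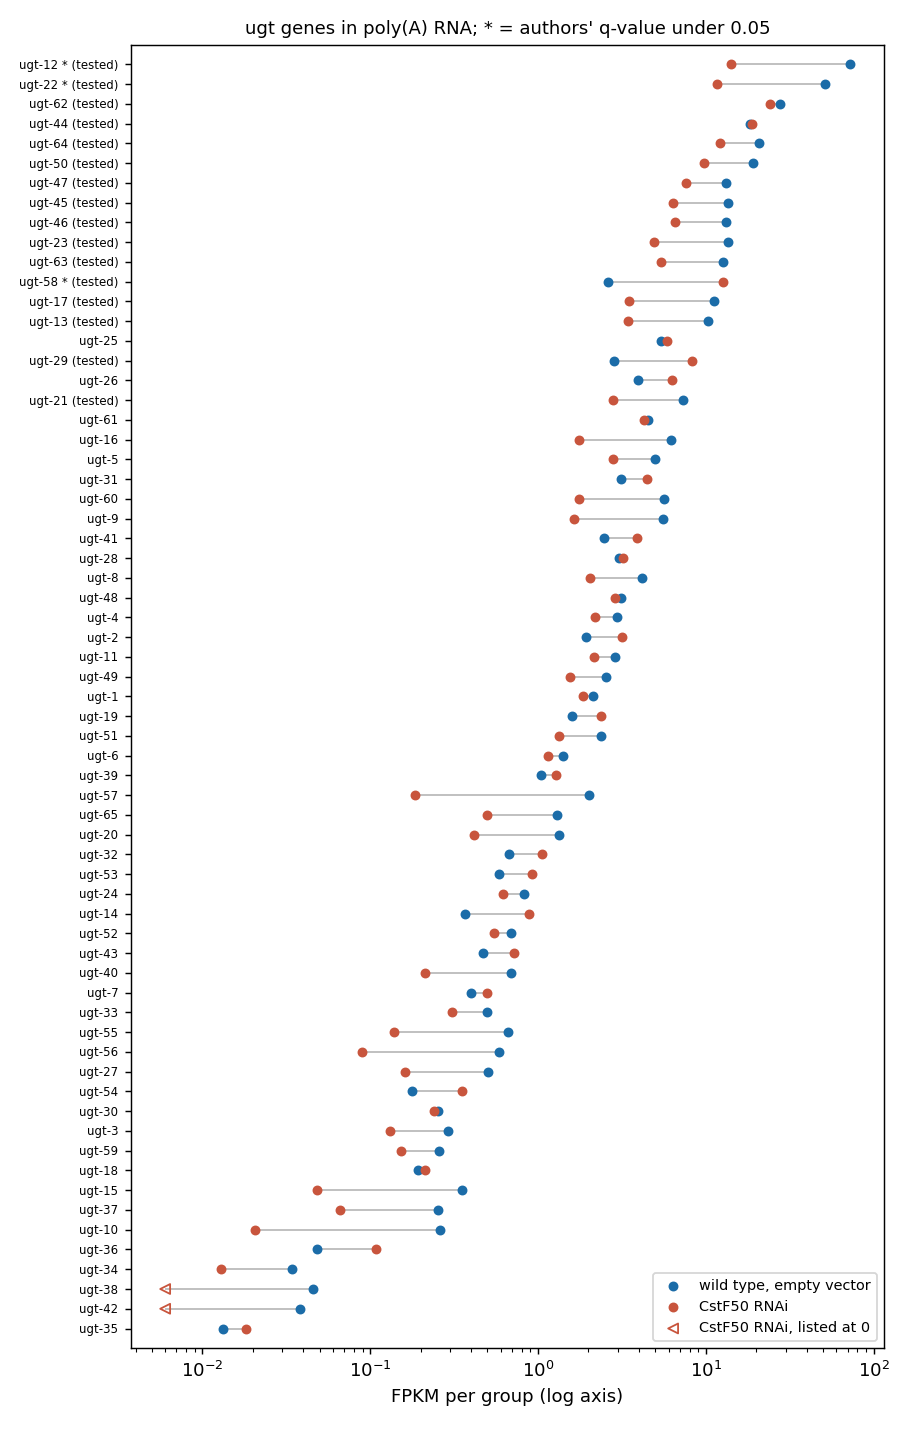
FPKM of the 65 ugt genes in poly(A) RNA on a log axis, ordered by mean, with 1 point per group for wild type (blue) and CstF50 RNAi (red); there is no error bar because the table holds 1 value per group. The genes ugt-12 and ugt-22 at the top run from 72.0 and 51.4 FPKM in wild type down to 14.1 and 11.7 in RNAi, ugt-58 runs the other way, and 2 genes are listed at 0 in RNAi.

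Of the 65 members 16 were tested by the authors in poly(A) RNA (status OK), and only these could be called. Among the 16, 1 rose, 2 fell and 13 did not pass. Over all 8513 tested genes 3.12% rose and 13.6% fell, so the members' 6.25% and 12.5% are near the background. Their median log2 fold change was -1.05, against -0.90 for all tested genes with both values above 0. FPKM were lower in RNAi for 81.25% of the tested members and for 81.3% of all tested genes. Taken relative to that median gene, 10 of the 16 lay below it and 6 above. Over all genes 5.63% passed as higher and 0.51% as lower on that scale. There ugt-58 still passed as higher at 3.16 (adjusted p = 6.12e-06, from a normal deviate after Benjamini-Hochberg adjustment), whereas ugt-12 at -1.46 and ugt-22 at -1.24 no longer passed (adjusted p = 0.0712 and 0.151).

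The 13 tested members that did not pass spanned both directions. The nearest to the threshold was ugt-17, at 11.2 FPKM for wild type and 3.48 for RNAi (q-value 0.0594 in the authors' deposited table). Next in size of decrease were ugt-13, at 10.3 and 3.44 FPKM (q-value 0.128), and ugt-23, at 13.5 and 4.93 FPKM (q-value 0.206). The gene ugt-29 had the second largest positive fold, from 2.84 to 8.32 FPKM (q-value 0.176). The abundant members ugt-62 and ugt-44 were nearly level, at 27.7 and 24.1 FPKM and at 18.3 and 18.8 FPKM, and the authors' deposited table gives ugt-64 at 20.6 and 12.2 FPKM. Relative to the median gene the signs of ugt-62 and ugt-64 turn, to 0.69 and 0.14.

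The other 49 members were listed without a test, none above 6.30 FPKM, and 27 of the 65 members averaged under 1 FPKM. Of the 49, 32 had the lower value in RNAi and 17 the higher. An unadjusted p-value under 0.05 stood beside 7 of them, all lower in RNAi, which is 14.3% of the untested members; among all untested rows with a p-value under 1 it stood beside 4.16% as lower and 2.17% as higher. Among these 7, named after their values were seen, the authors' deposited table has ugt-57 at 2.00 and 0.186 FPKM, ugt-16 at 6.22 and 1.75 FPKM and ugt-9 at 5.56 and 1.65 FPKM. The authors gave these rows a q-value of 1, so none is a call. The genes ugt-38 and ugt-42 were listed at 0 in RNAi and at 0.0457 and 0.0379 FPKM in wild type.

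Summed over all 65 members the FPKM were 395 in wild type and 219 in RNAi. Over all tested genes with both values above 0, the median log2 fold change was -0.90 and 81.3% were lower in RNAi. The lower sum is therefore not particular to the family. The 2 genes ugt-12 and ugt-22 made up 31.3% of the wild-type sum, and without them the sums were 271 and 193 FPKM. The family's poly(A) output was therefore spread over few genes, with a long tail of low members. In whole animals fewer cells of a type and less RNA per cell cannot be told apart.

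The second comparison asked which ugt genes differ between conditions A and B of rRNA-depleted RNA. The authors' deposited table called 9 of the 65 members, 6 higher and 3 lower in B. That is 13.8% of the members against 8.31% of all 25640 genes, 9.23% against 5.54% for higher and 4.62% against 2.77% for lower. Both means were above 0 for 19779 of the 25640 genes and for 64 of the 65 members. The shares over all genes thus include rows with a mean of 0. The median log2 fold change of the 64 members with both means above 0 was 0.14, beside 0.02 for all such genes. The mean was higher in B for 39 members and lower for 26, a share of 60.0% beside 59.8% of all genes, and with upper-quartile scaling the split was 37 and 28.

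Of the members lower in B, ugt-22 was counted 2065 and 724 times in the first and second library of A and 5384 and 2067 times in those of B. After scaling by the size factors these are 2795 and 2906 normalized counts in A and 1482 and 1342 in B. Both libraries of A lay far above both of B. Condition B was 2.02-fold lower, -1.01 on the log2 scale (adjusted p-value 0.000415 in the authors' deposited table), and limma-voom estimated -0.99 (SE 0.09).

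For ugt-12 the normalized counts were 1776 and 1919 in A and 929 and 960 in B, from 1312, 478, 3374 and 1479 reads. Its groups did not overlap either, and its log2 fold change was -0.97 (adjusted p-value 0.00219 in the authors' deposited table). The limma-voom estimate for ugt-12 was -0.96 (SE 0.10). The third, ugt-46 (B0310.5, chromosome X from 525929 to 530177), had 904 and 803 normalized counts in A and 474 and 611 in B. Its log2 fold change of -0.65 lay close to the threshold (adjusted p-value 0.0474 in the authors' deposited table). Without the first library of A, ugt-46 did not pass by limma-voom (log2 fold change -0.60, adjusted p = 0.165).

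Of the members higher in B, ugt-41 (F10D2.11, chromosome V from 7161049 to 7163576) had the smallest p-value. It had 291 and 345 normalized counts in A and 743 and 806 in B, from 215, 86, 2697 and 1242 reads. The libraries of B were above those of A without overlap, by 2.43-fold or 1.28 on the log2 scale (adjusted p-value 2.78e-05 in the authors' deposited table). The limma-voom estimate was 1.32 (SE 0.17).

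The neighbouring genes ugt-26 and ugt-25 on chromosome I, with ugt-27 and ugt-28 between them, both rose. For ugt-26 (C10H11.6, from 4721179 to 4723961) the normalized counts were 96.1 and 112 in A and 338 and 284 in B, a log2 fold change of 1.58 (adjusted p-value 0.00034 in the authors' deposited table). For ugt-25 (C10H11.3, from 4731605 to 4735280) they were 334 and 293 in A and 780.2 and 619 in B, a log2 fold change of 1.16 (adjusted p-value 0.00635 there). In both genes the groups were apart. The coding gene mlst-8 overlaps ugt-25 on the other strand, and its means went the other way, with 658 normalized counts in A and 456 in B (adjusted p-value 0.339 in the authors' deposited table).

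The remaining 3 members that were higher in B lie apart from one another. The gene ugt-31 (Y39G10AR.6, chromosome I from 2333328 to 2338690) had 32 and 12 reads in A and 539 and 241 in B, which are 43.3 and 48.2 against 148 and 156 normalized counts. Its log2 fold change of 1.74 was the largest of the called members (adjusted p-value 0.0103 in the authors' deposited table). For ugt-29 (Y49C4A.8, chromosome V from 696524 to 699615) the normalized counts were 166 and 104 in A and 396 and 370.0 in B, a log2 fold change of 1.50 (adjusted p-value 0.00351 there).

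The last, ugt-47 (R04B5.9, in a locus shared with another row, chromosome V from 10094695 to 10098569), had nearly equal libraries within each condition, 619.9 and 618 normalized counts for A and 1080.1 and 1027 for B. Its log2 fold change was 0.77 (adjusted p-value 0.0271 in the authors' deposited table). Without the first library of A, by limma-voom, neither ugt-47 (log2 fold change 0.77, adjusted p = 0.0674) nor ugt-31 (1.60, adjusted p = 0.0863) passed. With ugt-46 these are 3 of the 9 calls, and all 9 passed without any other library. Each such fit leaves 1 condition with a single library, which is assumed to vary like those of the other condition.

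**Figure D2:**
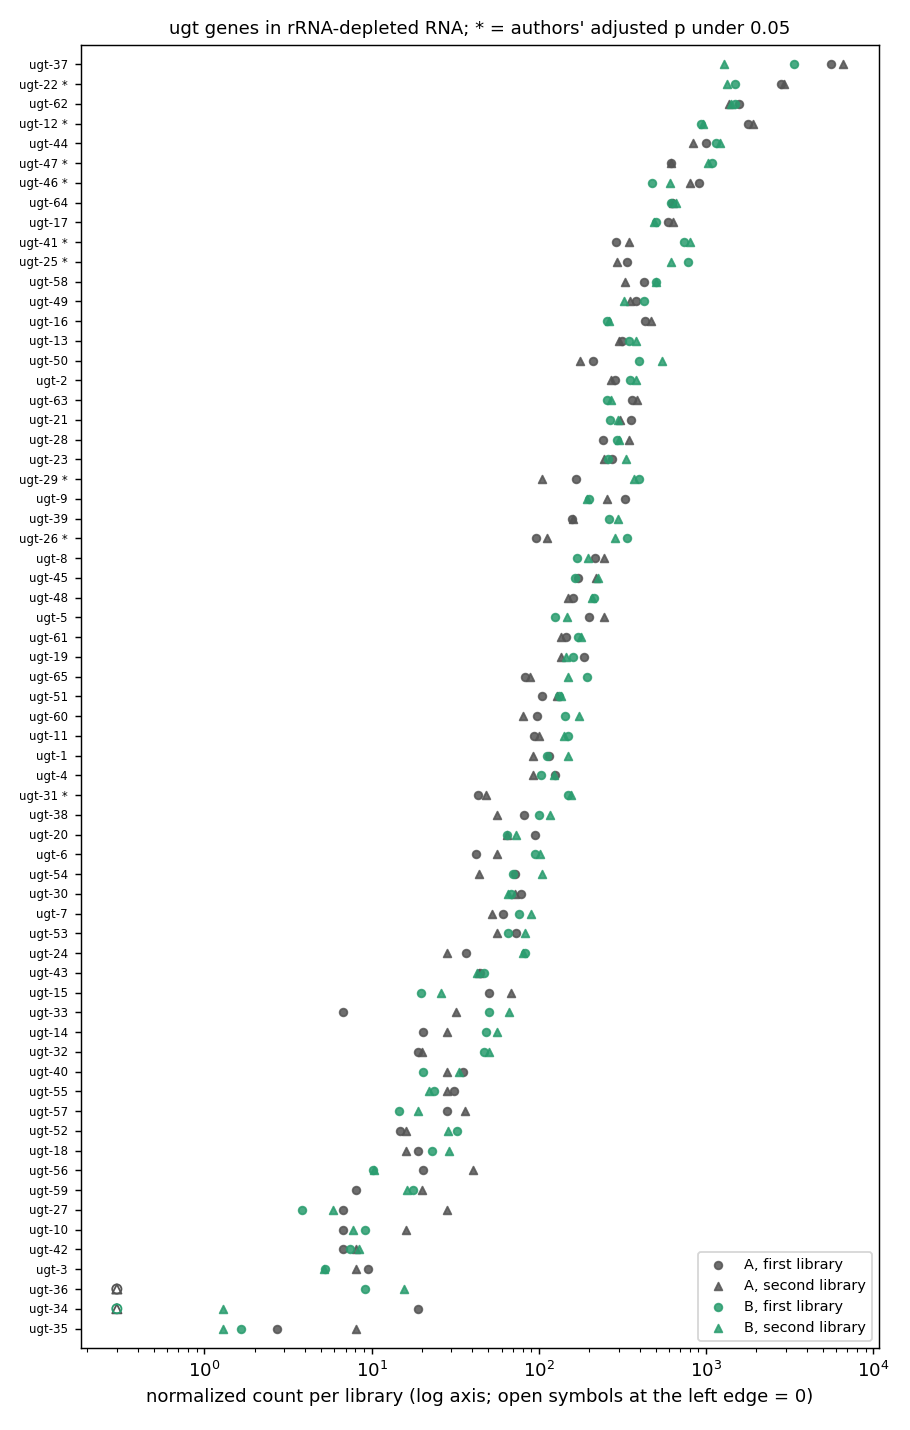
Normalized counts of the 65 ugt genes in each rRNA-depleted library on a log axis, ordered by mean, with 2 points for condition A (grey) and 2 for condition B (green); open symbols at the left edge are counts of 0. The libraries of ugt-22 and ugt-12 in A, at 1776 to 2906, lie to the right of those in B, at 929 to 1482, and those of ugt-41, ugt-26 and ugt-31 in B lie to the right of those in A.

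Beyond the calls, the libraries of 28 members lay wholly higher in B and those of 19 wholly lower, while 18 overlapped. These are 43.1% and 29.2% of the members, against 36% and 22.2% of all genes with recovered counts. By limma-voom on the recovered counts 13 members were higher and 9 lower in B, among them all 9 called by the authors. The same test called 15.9% of 19958 genes higher and 12.2% lower, so the members' counts of 13 and 9 of 65 lie near those shares. Among the 9, ugt-37 shares almost all its counts with an overlapping snRNA gene. Among the 13 is ugt-65, named after its values were seen, with 61 and 22 reads in A and 702 and 229 in B. The coding gene col-130 overlaps it on the other strand, with 14 and 2 reads in A and 504 and 158 in B. How many reads these genes share was not tested.

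The largest fold changes among the members rested on few reads and were not called by the authors. The gene ugt-34 had 14 and 0 reads in A and 0 and 2 in B, a log2 fold change of -3.87 (adjusted p-value 0.837 in the authors' deposited table). For ugt-36 there were 0 reads in both libraries of A and 33 and 24 in B, at least 4.06-fold higher against a floor of 3 counts over the condition and at least 1.53-fold against 3 counts per library (adjusted p-value 0.433 there). The libraries of ugt-34 disagreed within condition A, whereas those of ugt-36 agreed. By limma-voom ugt-36 passed (3.24, adjusted p = 0.0378) and ugt-34 did not (-4.44, adjusted p = 0.0516).

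The lowly expressed ugt-33 had 5 and 8 reads in A and 183 and 102 in B, a log2 fold change of 1.58, which missed the threshold over all genes (adjusted p-value 0.0761 in the authors' deposited table). The libraries of A differed, at 6.77 and 32.1 normalized counts. By limma-voom ugt-33 passed (2.17, adjusted p = 0.0326), with an estimate of 0.72 without the first library of A (adjusted p = 0.564) and 2.91 without the second. It also passed among genes averaging at least 10 normalized counts (adjusted p = 0.0464). The other large decreases were ugt-35, with 2 and 2 reads in A and 6 and 2 in B, ugt-27, with 5 and 7 against 14 and 9, and ugt-56, with 15 and 10 against 37 and 16. The libraries of B were sequenced several times deeper, so these raw reads correspond to lower normalized counts in B. Their adjusted p-values were 1, 1 and 0.948 in the authors' deposited table.

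Set side by side, the poly(A) and rRNA-depleted differences come from separate libraries, but their directions cannot be matched because A and B are not named. The genes ugt-12 and ugt-22 were the 2 members called in both tables, lower in RNAi and lower in B. The gene ugt-58, 4.82-fold higher in RNAi, had 425 and 329 normalized counts in A and 504 and 505 in B (log2 fold change 0.42, adjusted p-value 0.96 in the authors' deposited table). Conversely ugt-47, higher in B, was at 13.2 FPKM for wild type against 7.59 FPKM after RNAi (q-value 0.352 there), a log2 fold change of -0.80 that turns to 0.09 relative to the median gene. Over the 62 members with 2 finite log2 fold changes Pearson's r between them was 0.55 and Spearman's rho 0.65. Those 62 include members not tested in poly(A) RNA, and over the 16 tested members r and rho were 0.62 and 0.68. Over the 8147 genes tested in poly(A) RNA with both means above 0 they were 0.56 and 0.31. These are descriptions across genes that share the same libraries.

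Of the 65 members 24 were lower in RNAi and lower in B, 18 were higher in both, 21 were lower in RNAi and higher in B, and 2 were higher in RNAi and lower in B. The same 4 classes held 36.0%, 21.8%, 34.7% and 7.55% of all 18400 genes with a direction in both tables, and 36.9%, 27.7%, 32.3% and 3.08% of the members. The family's split was thus much like that of the rest of the transcriptome.

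**Figure D3:**
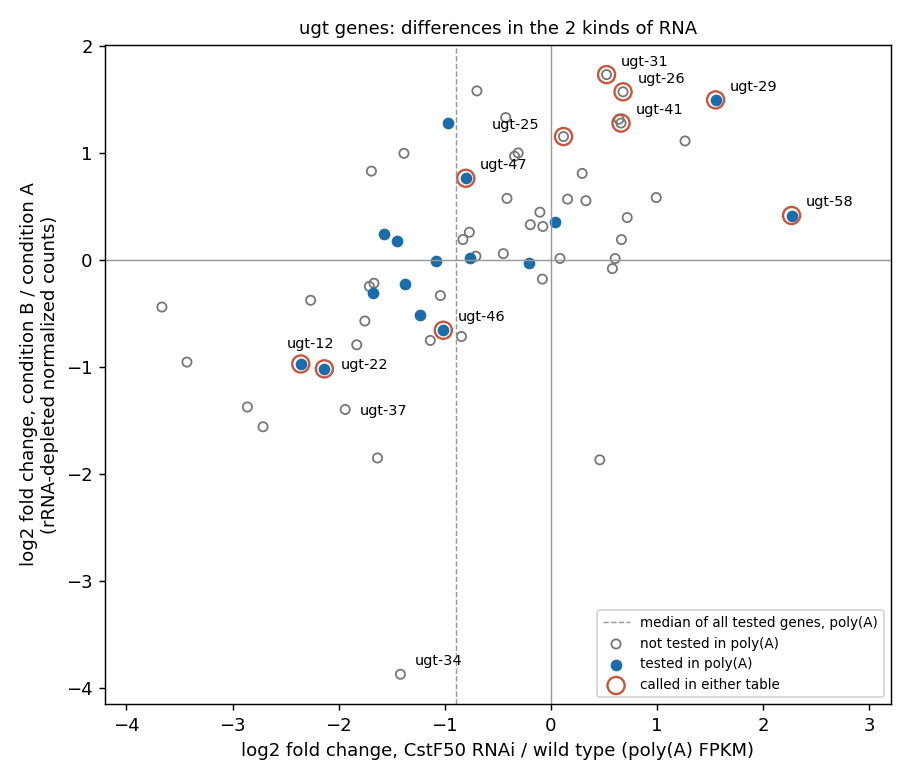
Log2 fold change of each ugt gene in poly(A) RNA (CstF50 RNAi over wild type, horizontal) against that in rRNA-depleted RNA (condition B over condition A, vertical), for the 62 members with both. The called genes ugt-12 and ugt-22 sit together at the lower left, at -2.36 and -2.14 by -0.97 and -1.01, and most points lie left of 0 around the dashed median of all tested genes at -0.90.

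By position, 41 of the 65 members are on chromosome V, 12 on IV, 5 on I, 4 on X, 2 on III and 1 on II. Where loci within 10 kb of each other were joined, 36 members fell into 11 tandem groups of 2 to 7 genes and 29 stood alone. The group with 7 genes lies on chromosome V from 4887159 to 4911444 and runs ugt-12, ugt-11, ugt-9, ugt-10, ugt-8, ugt-14 and ugt-13. Levels within it, compared per length, went from 5.40 normalized counts per kb of exon for ugt-10 to 824 for ugt-12, the means of A and B. Log2 fold changes there went from -0.97 for ugt-12 to 1.12 for ugt-14, and ugt-12 was its only called member.

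In the chromosome I group of ugt-26, ugt-27, ugt-28 and ugt-25, the outer genes were higher in B while ugt-28 had means of 293 and 297 normalized counts and ugt-27 had 17.4 and 4.85 (adjusted p-value 1 for each in the authors' deposited table). In the pair ugt-47 and ugt-17 on chromosome V, ugt-47 was higher in B and ugt-17 had 589 and 638 normalized counts in A and 505 and 487 in B (adjusted p-value 0.982 there). No group held calls in both directions, and differences between neighbours were not tested. Reads shared between similar copies could blur such contrasts, and sequence identity between members was not analysed here.

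**Figure D4:**
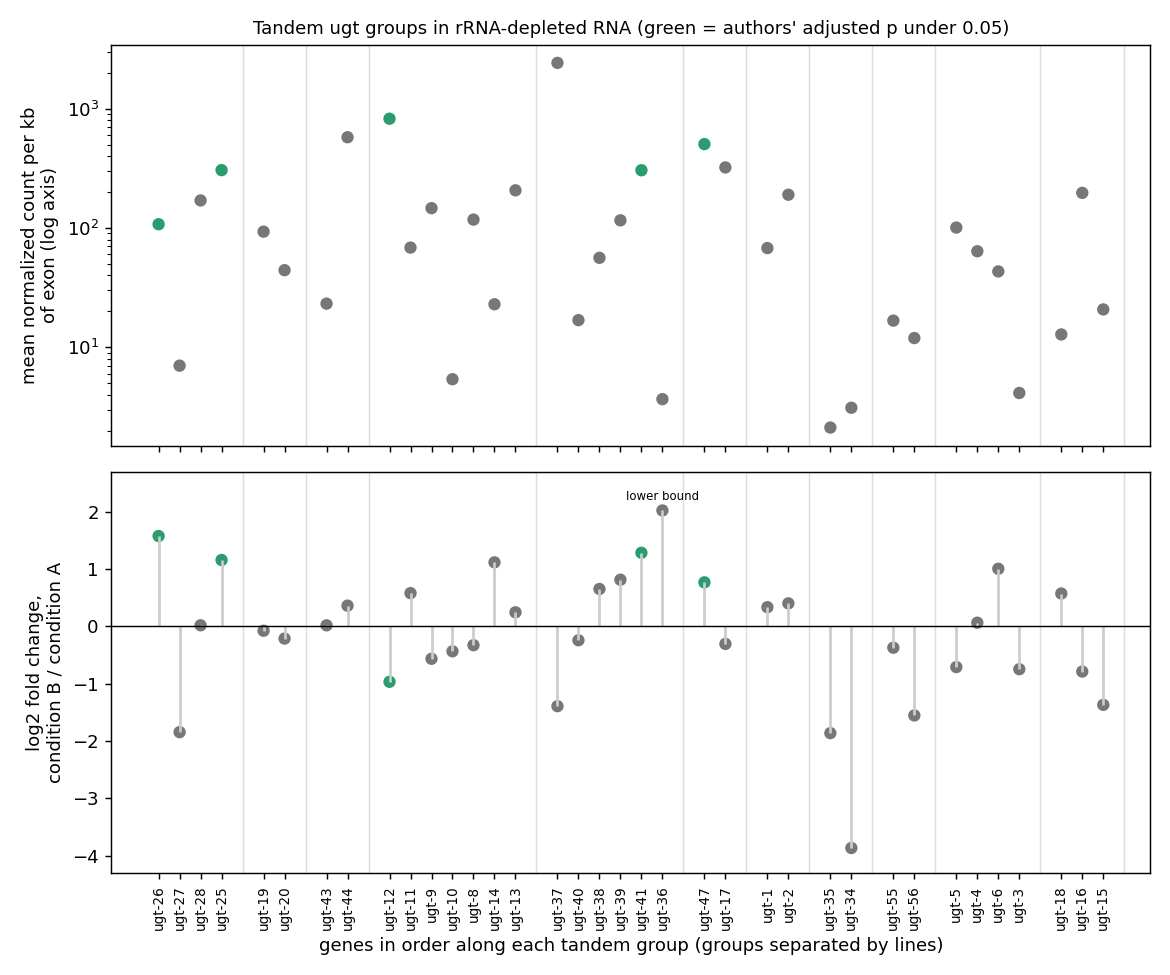
The 36 ugt genes of the 11 tandem groups in order along the chromosome, with the mean normalized count per kb of exon (top, log axis) and the log2 fold change of condition B over condition A (bottom); green points passed the authors' adjusted p-value, and the value of ugt-36 is a lower bound. Adjacent genes differ widely, as from ugt-12 at 824 to ugt-10 at 5.40 normalized counts per kb.

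Levels per length in the 2 kinds of RNA were correlated across the members, and ugt-37 lay farthest from the order of the rest. Over the 65 members the log10 mean FPKM and the log10 mean normalized count per kb of exon had a Pearson's r of 0.80 and a Spearman's rho of 0.83. By mean FPKM the order at the top was ugt-12, ugt-22, ugt-62, ugt-44 and ugt-64. By mean normalized count it was ugt-37, ugt-22, ugt-62, ugt-12 and ugt-44. The libraries of ugt-62 overlapped, with A at 1576 and 1373 and B at 1490.3 and 1418, and those of ugt-44 did not, with A at 996 and 839 and B at 1141 and 1216 (adjusted p-value 0.875 in the authors' deposited table).

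This gene, ugt-37 (F10D2.6, in a locus on chromosome V from 7139464 to 7145299 that the authors' table also gives for ugt-40), had the highest mean of the family in rRNA-depleted RNA but 0.255 and 0.0664 FPKM in poly(A) RNA. Its normalized counts were 5611 and 6548 in A and 3345 and 1285 in B, a log2 fold change of -1.39 that the authors' deposited table did not call (adjusted p-value 0.239) and limma-voom did (-1.33, SE 0.35, adjusted p = 0.0185). The annotation places an snRNA gene, F10D2.13, inside ugt-37 on the same strand, and a non-coding RNA gene, F10D2.15, there on the other strand. Both have the same 6046 and 2286 normalized counts in A and B as each other in the authors' deposited table, so the counts there do not tell the strands apart.

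The reads of ugt-37 numbered 4145 and 1631 for A and 12151 and 1979 for B, and those of the snRNA gene 4117 and 1624 for A and 12050 and 1932 for B. That left 28 and 7 reads in A and 101 and 47 in B outside it. The snRNA gene's mean equalled 99.5% of that of ugt-37 in A and 98.7% in B. The remainder came to 33.0 normalized counts in A and 29.2 in B, a log2 difference of -0.18, and the value listed for ugt-37 is therefore almost all shared with the snRNA. Without ugt-37 the correlation of levels over 64 members was r = 0.89 and rho = 0.91.

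A further member off the trend, ugt-38, named after its values were seen, had 68.7 and 108 normalized counts in A and B and 0.0457 and 0 FPKM in wild type and RNAi in the authors' deposited table. No annotated gene overlaps it. Altogether 10 members overlap a non-coding RNA gene, piRNA genes included, and 12 overlap another coding gene, 17 in all. Among the called members these are ugt-22, ugt-25 and ugt-47, and the overlapping genes srz-29 at ugt-22 and srd-49 at ugt-47 had at most 7.40 normalized counts in either condition in the authors' deposited table.

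**Figure D5:**
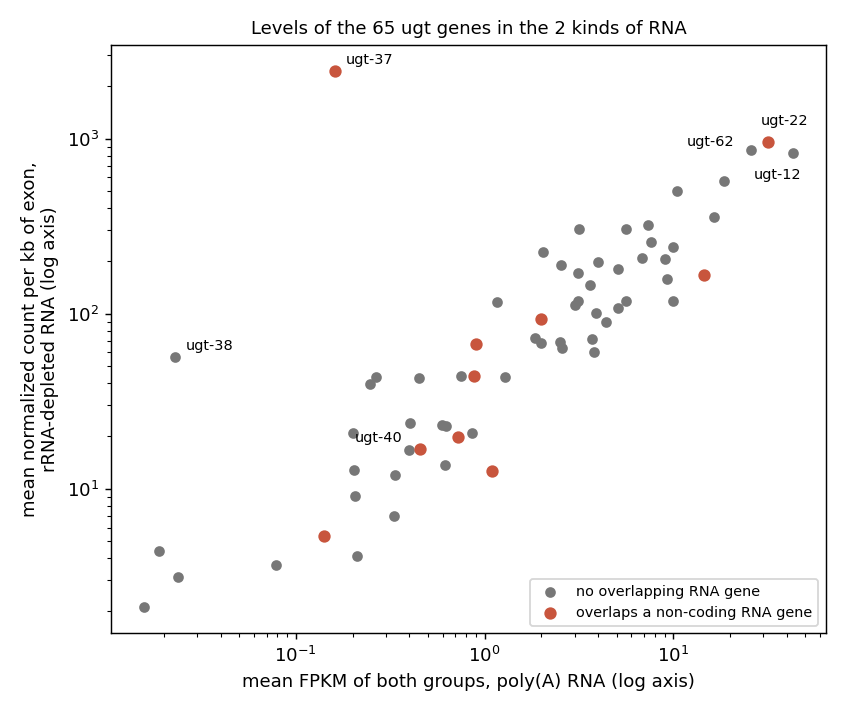
Mean FPKM of both poly(A) groups (horizontal) against the mean normalized count per kb of exon of both rRNA-depleted conditions (vertical), both on log axes, for the 65 ugt genes, with those that overlap an annotated non-coding RNA gene in red. The point of ugt-37 stands far above the trend at the upper left, and ugt-38 lies above it at the left.

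Genes of UDP-sugar metabolism and of the steps around conjugation were read from lists chosen around the detoxification pathway. Whether the UDP-sugar genes supply the sugar that the ugt enzymes use was not tested. Over all tested genes 13.6% fell in poly(A) RNA, and the median log2 fold change was -0.90. Of 4 genes of UDP-sugar metabolism and transport, all tested, 3 fell and 1 did not pass, with a median of -1.89. These were sqv-7, a Golgi transporter of UDP-sugars, from 127 to 27.1 FPKM, gale-1, the UDP-galactose epimerase, from 129 to 30.2 FPKM, and sqv-1, which converts UDP-glucuronic acid to UDP-xylose, from 53.3 to 16.5 FPKM, all as the authors' deposited table lists them. The fourth, sqv-4, the dehydrogenase that makes UDP-glucuronic acid from UDP-glucose, had 276 and 129 FPKM (q-value 0.108). Relative to the median gene none of the 4 passed by the normal deviate, and 2 had an unadjusted p under 0.05 as lower.

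In rRNA-depleted RNA 3 of these 4 genes were lower in B, gale-1 with 1386 and 819 normalized counts in A and B, sqv-7 with 1030.0 and 628 and sqv-4 with 4034 and 2581 (adjusted p-values 0.0131, 0.0234 and 0.0332 in the authors' deposited table). Over all genes 2.77% were lower in B. The median log2 fold change of the list was -0.68, beside 0.02 over all genes. The genes sqv-7 and gale-1 were lower in RNAi and lower in B, as ugt-12 and ugt-22 were.

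Cytochrome P450 genes and their reductase emb-8, which act before conjugation, had 1 of 13 tested members lower in poly(A) RNA. The other 12 did not pass. The share lower was 7.69%, below the 13.6% of all tested genes. The list's median log2 fold change was -1.21, beside -0.90 for all tested genes with both values above 0. In the authors' deposited table the called gene, cyp-35C1, fell from 43.2 to 4.79 FPKM. In rRNA-depleted RNA 5 of 75 were higher and 4 lower in B, 6.67% and 5.33% beside 5.54% and 2.77% of all genes, with a median of 0.09. The lower ones included cyp-35A3, with 505 and 110 normalized counts in A and B, and cyp-35C1, with 791 and 270.1. The higher ones included cyp-14A5, with 248 and 691 (adjusted p-value 3.37e-06 in the authors' deposited table).

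Glutathione transferases, which conjugate glutathione in place of a sugar, had 2 members higher and 4 lower among 27 tested in poly(A) RNA, with a median of -0.85, and 5 higher and 3 lower of 47 in rRNA-depleted RNA, with a median of 0.13. The 14.8% lower in poly(A) RNA is near the 13.6% of all tested genes, and 7.41% were higher beside 3.12%. In rRNA-depleted RNA 10.6% were higher and 6.38% lower in B, beside 5.54% and 2.77% of all genes. Relative to the poly(A) median gene 3 passed as higher and 1 as lower by the normal deviate. The lower one was gst-27, from 325 to 35.3 FPKM (adjusted p = 0.00531). The stress-inducible gst-4 rose from 6.53 to 30.7 FPKM, and had 192 and 1158 normalized counts in A and B. In the authors' deposited table the omega-class gsto-1 fell from 83.2 to 17.6 FPKM, and its means in A and B were 1438 and 489 normalized counts. Relative to the median gene gst-4 still passed in poly(A) RNA (adjusted p = 0.000561) and gsto-1 did not (adjusted p = 0.316).

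ABC efflux transporters of the pgp and mrp families had 8 of 22 members higher in B and 0 lower, and 14 did not pass. The higher ones are 36.4% of the list, beside 5.54% of all genes. The median log2 fold change of the list was 0.67. The P-glycoprotein gene pgp-8 had 17.5 and 466 normalized counts in A and B, pgp-7 had 47.3 and 348, and pgp-5 had 109 and 659 (adjusted p-value 2.32e-13 for pgp-5 in the authors' deposited table). In poly(A) RNA the authors' Cuffdiff-layout q-value called 0 of the 4 tested, 1 of which was lower with an unadjusted p under 0.05, and the median was -0.93.

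Of 15 regulators of the xenobiotic response 10 were tested in poly(A) RNA and 1 fell. That is 10% of those tested, beside 13.6% of all tested genes. Their median log2 fold change was -0.98, beside -0.90 for all tested genes with both values above 0. In the authors' deposited table the gene that fell was mdt-15, a Mediator subunit gene, from 37.4 to 9.89 FPKM (log2 fold change -1.92, implied SE 0.57). Relative to the median gene mdt-15 did not pass (adjusted p = 0.402). In rRNA-depleted RNA the authors' DESeq test called 0 of the 15, against 2 with an unadjusted p under 0.05, and limma-voom called 5 higher and 0 lower in B, 33.3% of the list beside 15.9% of all genes for higher.

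Markers of tissues moved between the groups as well. Over all genes tested in poly(A) RNA 3.12% rose and 13.6% fell. In rRNA-depleted RNA 5.54% of all genes were higher and 2.77% lower in B. Of 10 tested intestine markers 3 fell in poly(A) RNA, among them pept-1, the peptide transporter, from 16.5 to 1.60 FPKM, and act-5, the microvillus actin, from 1704 to 476 FPKM, and the list summed to 14306 FPKM in wild type and 8205 in RNAi. The list's median log2 fold change in poly(A) RNA was -0.91, beside -0.90 for all tested genes with both values above 0. In rRNA-depleted RNA 2 of 12 intestine markers were lower and 1 higher in B, and the list summed to 27235 and 26447 normalized counts. The lower ones were pept-1, with 1468 and 671 in A and B, and act-5, with 5642 and 3609. The higher one was cpr-1, with 1247 and 2602 (adjusted p-value 9.14e-05 in the authors' deposited table). The defining genes elt-2, the intestinal GATA factor, and ges-1, the gut esterase, had 92.2 and 101 and 227 and 354 normalized counts in A and B, with adjusted p-values of 1 and 0.155 in the authors' deposited table. Neither was tested in poly(A) RNA. There elt-2 had 4.54 and 3.02 FPKM in wild type and RNAi, and ges-1 had 2.93 and 3.58. On the scale relative to the median gene 1 of the 10 intestine markers passed as lower, pept-1, and 1 as higher. Sperm markers summed to 30.1 and 328 FPKM and to 63.8 and 4419 normalized counts, with 5 of 7 tested members higher in RNAi, 8 of 10 higher in B, and gsp-3, gsp-4, msp-3, spe-38 and ssq-4 at 0 in A.

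Hypodermis markers summed to 1586 and 2251 FPKM and to 6099 and 10757 normalized counts, with 2 of 6 tested members higher in RNAi, 4 of 8 higher in B and rol-6 at 0 in A. Muscle markers summed to 661 and 1912 FPKM and to 10455 and 29535 normalized counts, with 1 of 2 tested members higher in RNAi and 5 of 5 higher in B. Oocyte and germline markers summed to 4367 and 2112 FPKM, with 3 of 11 lower in RNAi, and to 66666 and 69964 normalized counts, with 1 of 11 higher in B. Neuron markers summed to 571 and 253 FPKM, with 3 of 6 tested members lower in RNAi, and to 3375 and 4387 normalized counts, with 1 of 7 lower in B. Taken against the median gene, 0 oocyte and germline markers and 0 neuron markers passed as lower by the normal deviate, with 1 of each at an unadjusted p under 0.05. For all of these lists the shares over all genes were 3.12% higher and 13.6% lower in RNAi, and 5.54% higher and 2.77% lower in B. The part of these marker differences in the ugt results was not tested.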

How the data were processed

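The deposited poly(A) table holds 1 FPKM per group and, for each gene, the authors' p-value and q-value; its layout is that of Cuffdiff, per the file headers. The deposited rRNA-depleted table has the DESeq layout, per the file headers: counts divided by size factors and averaged over each of conditions A and B, which no header names, plus a p-value and its adjusted form. Repeated rows were used once, and the tables were normalized separately. Bowtie, DESeq and build ce10 come from the submitters' processing notes; for the counter, the annotation and filters, the entry is "not given in the sources used here". Poly(A) depth is unknown.

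A call is an authors' q-value (poly(A)) or adjusted p (rRNA-depleted) under 0.05. Fold changes were recomputed from the deposited group values. The implied SE is what makes the log2 fold change, over that SE, the normal deviate of the authors' p-value. A mean of 0 in A was set to 3 counts over both libraries (3.04 normalized counts), which covers counting error only. Whole counts per library were solved from each mean (tolerance 0.6 of the last printed digit, means up to 30000, unique solutions only) and used in limma-voom (limma 3.58.1, R 4.3.3, total of at least 10 reads) as an alternative; recovery and both tests were tested on simulated data. Genes overlapping a member and exon lengths came from Ensembl release 115 (WBcel235), whose coordinates were not used. Printed loci are the authors' on ce10, and the tandem groups were joined on them. For 13 members, ugt-22 and ugt-47 among them, the locus is shared with another row and may be wider than the gene. Members and lists were chosen with earlier results of these data known. Genes named are every called member, the 5 largest rises and falls and the 5 highest levels in each table, and up to 3 called genes per direction of each list, of which some are printed.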

Additional observations from a re-analysis of the deposited data

How the results depend on the processing

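No paired analysis was possible because neither table carries the replicate numbers of the libraries. In poly(A) RNA 1 member was higher and 2 were lower with adjustment over all rows and with a minimum mean of 1 FPKM. Pseudocounts of 1 and 0.1, and the floor per library in rRNA-depleted RNA, change only the fold and leave the authors' adjusted p as it is, so they do not test a call. With folds taken relative to the median gene 1 passed as higher but 0 as lower by the normal deviate, against 2 with an unadjusted p under 0.05; the cause was not tested. On that scale 2 members of the pathway lists were lower, in place of 9. In rRNA-depleted RNA limma-voom, with either scaling, called 13 members higher and 9 lower in B, in place of 6 and 3. In the pathway lists it called 36 higher and 18 lower, in place of 18 and 10. Over all genes limma-voom called 15.9% higher and 12.2% lower, in place of 5.54% and 2.77%, so more calls came with that test generally. Leaving out 1 library at a time it called 4 to 15 members higher and 4 to 10 lower. With genes averaging at least 10 normalized counts 7 were higher and 3 lower. Among the tested members the sign of the log2 fold change turned relative to the poly(A) median gene for 3 that did not pass, ugt-62 (0.69), ugt-64 (0.14) and ugt-47 (0.094), and it turned for 14 untested members. By limma-voom it turned for 2 of the 65 members with all libraries. Of the genes chosen for naming it turned for ugt-62 without the first library of A (0.084), ugt-64 without the second of B (-0.023) and ugt-23 without the second of B (-0.052). Depth limits the members under 100 normalized counts most, since the second library of A held a median of 25 reads per member.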
